A study of Danio rerio with 5 samples.

Results

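Hox cluster genes were described in RNA sequencing of zebrafish caudal fins, the tail fins that regrow after amputation. Every gene model whose name is hox, followed by a letter from a to d and a number, was taken. This gave 50 models of 48 gene symbols among the 31540 genes listed, spread over 7 clusters, since hoxa9a and hoxc10a are each listed as 2 models. Of the 50 models, 8 had no read in any library, 15 had reads but too few to be tested, and 27 were tested. The libraries fall into 3 labelled 24h and 2 labelled Control, and the labels call the material of both groups regenerated caudal fin tissue of Danio rerio. The design text speaks of fins at 1 and 3 days after amputation, but what was done to the fins labelled Control is not stated. The labels give no genotype, strain, age, sex or number of fish and do not state whether fins were pooled, so each p-value covers only how far these samples spread, and that spread may be technical.

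Hox genes encode homeodomain transcription factors that give cells their position along the body axis and along limbs and fins. They lie in clusters, and within a cluster the paralogue number runs from low numbers, used in the head and trunk, to high numbers, used in the tail and at the tips of appendages. In zebrafish hoxa13a, hoxa13b and hoxd13a are needed to form the fin skeleton, and hoxc13a and hoxc13b are known for their expression in the regenerating tail fin. A cluster is named here by its letter and its copy, so that hoxca and hoxcb are the copies of the C cluster that remain from the genome duplication of bony fishes.

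The libraries held 14958600 to 22341452 reads in genes, and Hox genes took a small part of them. All Hox models together had 3521, 4335 and 2144 reads in 24h samples and 5157 and 4659 in Control samples. In CPM, the reads of a gene scaled to library size with the TMM factors of edgeR, their sum was 172, 184 and 139 in 24h samples and 272 and 307 in Control samples. The sums did not overlap, and all 24h libraries lay below both Control libraries. The depth limits the low members: 3 reads, the number that a count of 0 still allows, correspond to 0.127 to 0.195 CPM in 24h samples and 0.158 and 0.198 CPM in Control samples, for counting error only.

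Hox genes were lower in 24h samples or did not pass the test. Of the 27 tested, 16 were called lower at an adjusted p under 0.05 (edgeR's quasi-likelihood test, Benjamini-Hochberg over 19034 genes), and 0 were called higher. Over all genes tested, 14.8% were called lower and 9.43% higher. The median log2 fold change, 24h over Control, was -1.04 over the 27 Hox models and -0.0043 over all genes. The 16 calls ran from -0.61 for hoxa13b to -5.39 for hoxb7a, with adjusted p from 0.000174 to 0.0466. In 22 of the 27 the CPM values of the 24h libraries all lay below those of the Control libraries, against 29.1% of all genes, and in hoxc9a they all lay above, against 27.7%. Among the 27, hoxc9a was also the 1 model higher at an unadjusted p under 0.05, and DESeq2 called it higher. Leaving out either Control library lowered the count of 16. Such fits keep 1 Control library, and no share over all genes is given for them, so this drop is not shown to be particular to Hox genes. With all 5 libraries and also when any of them was left out, 6 models were called: hoxb7a, hoxc12a, hoxc13b, hoxd3a, hoxd12a and hoxd13a.

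A filter on low counts sets which members could be tested, and it bears on these counts. Of the 27 models, 8 reached the filter's level of 0.53 CPM in 2 libraries only through the Control group, so they had to be lower in the 24h group: hoxa11a, hoxb7a, hoxb13a, hoxc12b, hoxd3a, hoxd11a, hoxd12a and hoxd13a. All of them but hoxa11a were among the 16 calls. Of the models called also when any library was left out, hoxb7a, hoxd3a, hoxd12a and hoxd13a belong to this group, while hoxc12a and hoxc13b do not. The median of -1.04 and the 22 models with groups apart include members of this group too, so they are a description. Of the other 19 models, 9 were called lower, beside 14.8% of all genes tested. That share also holds genes that passed only through the Control group, so it is not matched to these models. Because RNA came from whole tissue, fewer cells that express a gene and less RNA of it per cell cannot be told apart.

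**Figure D1:**
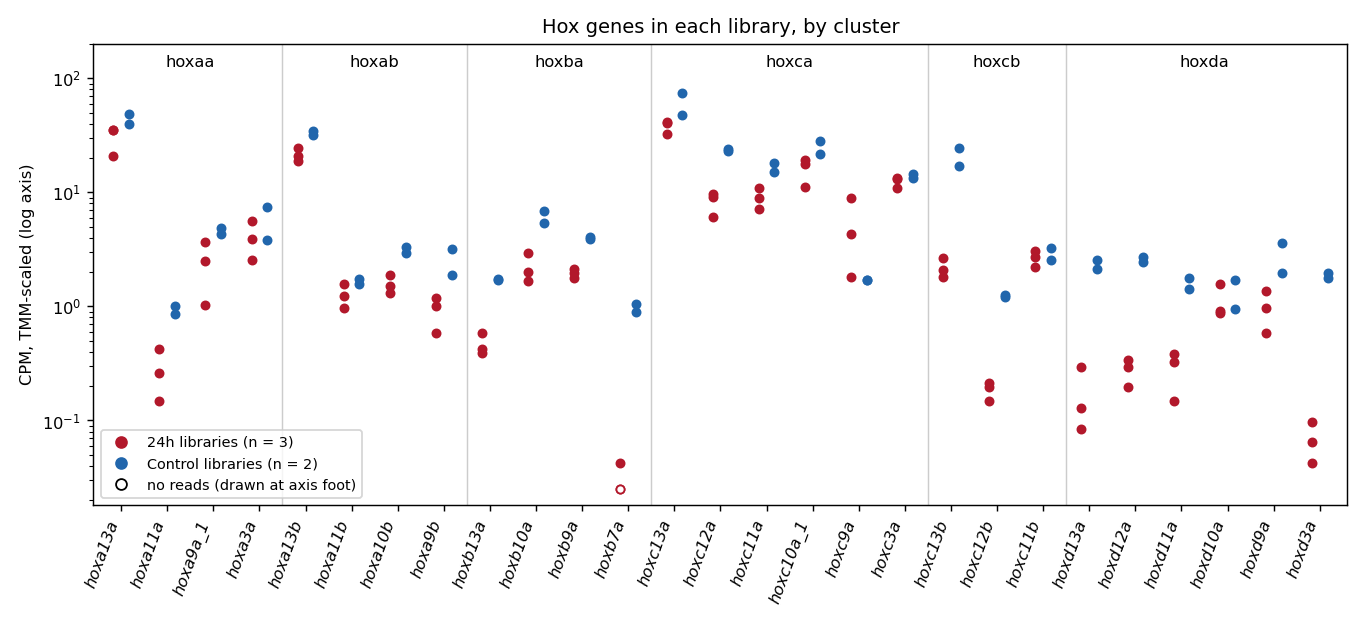
CPM of the 27 tested Hox models in each library (log axis), by cluster and from the highest to the lowest paralogue number within a cluster, with 24h libraries to the left of Control libraries in each column. The 24h values of hoxc13b, hoxc12b, hoxd11a, hoxd12a, hoxd13a, hoxd3a and hoxb7a lie far below their Control values, those of hoxa13a and hoxc13a lie close below, and those of hoxc9a lie above; 2 libraries without hoxb7a reads are drawn at the foot of the axis.

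Levels are set side by side here as RPKM, the exon reads of a model scaled to its exon length and to library size with the same TMM factors. Of the paralogues of number 13, hoxc13a, hoxa13a and hoxa13b were within the first 4 Hox models in both groups. The others stood lower, with hoxb13a at rank 20 in 24h samples and 16 in Control samples, and hoxd13a at 26 and 17. In the 24h libraries hoxc13a had the highest mean at 28.6 ± 5.66 RPKM (SD, n = 3), followed by hoxa13a at 18.2 ± 5.03, hoxa13b at 13.9 ± 1.88 and hoxc12a at 7.87 ± 2.29. In the Control libraries hoxc13a had 43.7 ± 13.6 RPKM (SD, n = 2), hoxa13a 26.2 ± 3.71, hoxc12a 22.7 ± 0.385, hoxa13b 21.2 ± 1.38 and hoxc13b 13.3 ± 3.44. In 24h samples hoxc13a and hoxa13a, and hoxa13a and hoxa13b, lay within the sum of their SD. In Control samples each pair of hoxa13a, hoxc12a and hoxa13b did. Of hoxa13a reads 21.0% were unique, against 70.7% of hoxa13b reads. On unique reads hoxa13b had more, 945 against 372 in 24h samples and 767 against 331 in Control samples. The order of these copies thus rests on reads that were not unique. Among the Hox models, hoxc13b ranked 9 in 24h samples and 5 in Control samples, and hoxc9a ranked 5 in 24h samples and 15 in Control samples.

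Models of paralogue numbers 9 to 13 held 88.5% to 90.3% of all Hox reads in 24h samples and 90.3% and 92.8% in Control samples. Number 13 alone held 57.6%, 57.2% and 54.0% in 24h samples and 51.4% and 60.2% in Control samples, ranges that overlap. Within number 13, hoxb13a, hoxc13b and hoxd13a together made up 1.45%, 1.73% and 2.01% of Hox reads in 24h samples, against 7.78% and 9.27% in Control samples. In Control samples hoxc13b alone had 320 of these 401 reads and 374 of these 432. These models have the lowest fold changes of number 13, and hoxb13a and hoxd13a passed the low-count filter only through the Control group. Their lower joint share thus follows from how they were picked and is a description. Number 12 held 5.57%, 5.51% and 4.62% in 24h samples and 9.89% and 9.14% in Control samples. By cluster, hoxda held 1.59%, 2.03% and 1.59% in 24h samples and 4.77% and 3.95% in Control samples, and hoxcb held 2.90%, 2.77% and 3.59% in 24h samples and 7.58% and 9.49% in Control samples. The share of hoxba was 2.22%, 3.21% and 3.36% in 24h samples and 4.77% and 5.00% in Control samples. The shares of hoxba, hoxcb, hoxda and number 12 thus did not overlap between the groups, with the 24h libraries below. The hoxca cluster held the most in every library, 53.4%, 52.3% and 57.6% in 24h samples and 49.1% and 48.8% in Control samples. Its shares did not overlap either, with the 24h libraries above. The same held for hoxab, at 14.6%, 15.5% and 16.0% in 24h samples and 14.1% and 13.8% in Control samples. It also held for number 3, at 9.63%, 9.64% and 11.2% in 24h samples and 8.90% and 6.29% in Control samples. On exon reads alone these last 2 did not hold. The hoxab shares were then 15.80%, 17.9% and 18.7% in 24h samples and 15.81% and 15.6% in Control samples. Those of number 3 were 4.42%, 4.31% and 5.45% in 24h samples and 4.84% and 2.80% in Control samples. Shares of 1 total depend on each other, and no test was made on them.

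**Figure D2:**
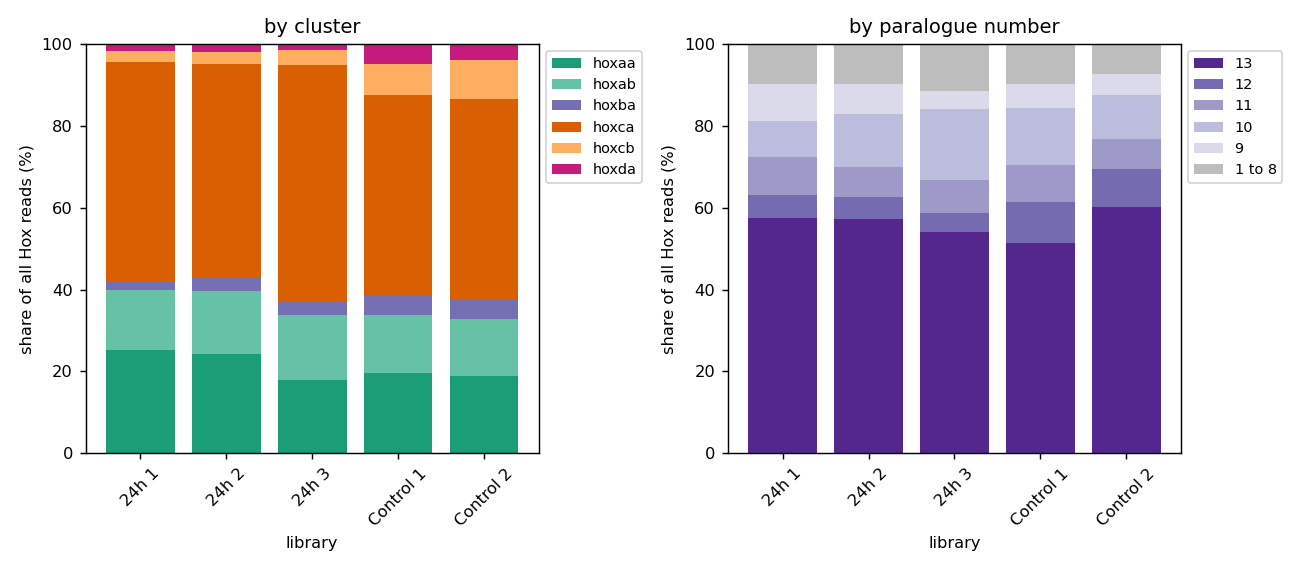
Share of all Hox reads (%) in each library, by cluster (left) and by paralogue number (right), 24h libraries left of Control libraries. The segments of hoxba, hoxcb and hoxda and of paralogue 12 are smaller in each 24h library than in either Control library, and those of hoxab and hoxca are larger. Total reads are drawn, and on exon reads alone the hoxab shares of the groups overlap. The segment of paralogue 13 covers 51.4% to 60.2% throughout. The hoxbb cluster, with at most 4 reads in a library, is not drawn.

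The hoxda cluster, on chromosome 9 from 1936252 to 1989526 (GRCz10), is the only D cluster among the 7. It had 5 of its 6 tested models called lower, beside 14.8% of all genes. Of these 5, all but hoxd9a passed the filter only through the Control group, so their direction was fixed and the count is a description. Its end gene hoxd13a, which acts in the fin skeleton, lies from 1986019 to 1989526 on the minus strand. It had 0.293, 0.0847 and 0.130 CPM in 24h samples, from 6, 2 and 2 reads, and 2.53 and 2.11 CPM in Control samples, from 48 and 32 reads. Every 24h value lay far below both Control values (log2 fold change -3.73 ± 0.50 SE, edgeR adjusted p = 0.00212). The neighbouring hoxd12a had 0.342, 0.296 and 0.195 CPM in 24h samples and 2.43 and 2.70 CPM in Control samples (-3.15 ± 0.38 SE, edgeR adjusted p = 0.00132). The next gene, hoxd11a, of a paralogue number that in the mouse patterns the forearm, had 0.147, 0.381 and 0.325 CPM in 24h samples and 1.43 and 1.78 CPM in Control samples (-2.46 ± 0.47 SE, edgeR adjusted p = 0.00987). Each of these 3 genes was lower without overlap, and the fold changes of neighbours in the cluster lay within the sum of their SE.

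The rest of the hoxda cluster was less uniform. The gene hoxd10a had 0.880, 1.57 and 0.909 CPM in 24h samples and 0.950 and 1.71 CPM in Control samples, values that overlapped (-0.22 ± 0.45 SE, 95% interval -1.27 to 0.83). For hoxd9a the values were 0.978, 1.35 and 0.584 CPM in 24h samples and 3.59 and 1.98 CPM in Control samples (-1.49 ± 0.43 SE, edgeR adjusted p = 0.0447). The call of hoxd9a is fragile: it was lost when any of the 5 libraries was left out (edgeR adjusted p from 0.0503 to 0.353), and that of hoxd11a was lost without Control replicate 1 (0.0609) or 2 (0.0799). Farther along, hoxd3a, of a number used in the hindbrain and throat region, had 2, 1 and 1 reads in 24h samples and 37 and 27 in Control samples. Its CPM was 0.0978, 0.0423 and 0.0649 in 24h samples, against 1.95 and 1.78 in Control samples (-4.66 ± 0.50 SE, edgeR adjusted p = 0.000733). Of its reads 47.1% were intron reads, and it overlaps hoxd4a, mir-10b-1 and another model on the same strand, so reads of these models cannot be told apart with certainty. The fold of these low members depends on the pseudocount: limma on log2(RPKM + 1) gave -0.42 for hoxd3a and -1.01 for hoxd13a.

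In the C clusters the a and b copies of number 13 differed in level. In the hoxcb cluster on chromosome 11, hoxc13b, from 2211057 to 2214269, had 1.81, 2.67 and 2.08 CPM in 24h samples and 16.9 and 24.7 CPM in Control samples. Its 24h values thus lay close together and far below the Control values (-3.24 ± 0.26 SE, edgeR adjusted p = 0.000174). Its reads were 100% unique in 24h samples and 81.4% unique in Control samples, 68.9% and 54.0% of them spanned exon junctions, and with unique reads alone the log2 fold change was -2.93. The next Hox gene of the cluster, hoxc12b, is separated from hoxc13b by the gene calcoco1b. It had 0.147, 0.212 and 0.195 CPM in 24h samples and 1.21 and 1.25 CPM in Control samples (-2.69 ± 0.45 SE, edgeR adjusted p = 0.00532). Without Control replicate 1 the log2 fold change of hoxc12b was -2.72, and its call was lost. The third tested gene of the cluster, hoxc11b, did not follow them. It had 3.03, 2.20 and 2.73 CPM in 24h samples and 2.53 and 3.23 CPM in Control samples, values that overlapped (-0.12 ± 0.29 SE, 95% interval -0.79 to 0.56; 0.0068 without 24h replicate 2 and 0.076 without Control replicate 2). All 3 models overlap the long model of hnrnpa1a, an RNA-binding protein gene with 382.7 ± 10.7 CPM (SD, n = 3) in 24h samples and 447.5 ± 30.1 CPM (SD, n = 2) in Control samples, which lies opposite to hoxc13b and on the strand of the others. Whether counting used strand is not given in the sources used here.

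In the hoxca cluster on chromosome 23, hoxc13a, from 35954141 to 35957083, had 40.7, 41.6 and 32.8 CPM in 24h samples and 47.7 and 73.8 CPM in Control samples. The groups did not overlap, but the lower Control value lay close to the 24h values, and the gene did not pass the test (-0.66 ± 0.20 SE, 95% interval -1.14 to -0.18, edgeR adjusted p = 0.0541). Without Control replicate 1 (edgeR adjusted p = 0.0288), without the low-count filter (0.0397), with unique reads (0.0499) and in DESeq2 (0.043) it passed. Among all alternatives the adjusted p was 0.0288 to 0.484. The gene hoxc12a had 9.10, 9.61 and 6.04 CPM in 24h samples and 23.3 and 24.1 CPM in Control samples (-1.51 ± 0.22 SE, edgeR adjusted p = 0.00271). It was lower in each 24h library by a wide gap, and all of its reads were unique. The next gene, hoxc11a, had 10.9, 8.93 and 7.21 CPM in 24h samples and 18.3 and 15.03 CPM in Control samples (-0.88 ± 0.22 SE, edgeR adjusted p = 0.0247). This call was lost without 24h replicate 2 (edgeR adjusted p = 0.0706), Control replicate 1 (0.192) or Control replicate 2 (0.0726).

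The rest of the hoxca cluster holds models that overlap each other. The model hoxc10a_1 had 11.2, 17.8 and 19.1 CPM in 24h samples and 28.3 and 21.6 CPM in Control samples (-0.64 ± 0.25 SE, edgeR adjusted p = 0.103). It lies on the minus strand, opposite to the other hoxca models, and 35.2% of its reads were unique. The gene hoxc9a stood apart from the other members: it had 8.999, 4.32 and 1.82 CPM in 24h samples and 1.69 and 1.71 CPM in Control samples. The 24h libraries were all higher but spread widely, with 24h replicate 3 close to the Control libraries, and the difference did not pass the test (1.58 ± 0.64 SE, 95% interval 0.05 to 3.10, edgeR adjusted p = 0.122). DESeq2 called it higher (1.59, adjusted p = 0.0409), as did edgeR without 24h replicate 3 (1.96, adjusted p = 0.0164). Among all alternatives the adjusted p was 0.0164 to 0.384. The long model hoxc3a, which spans hoxc9a to hoxc4a, had 10.9 to 13.4 CPM in 24h samples and 14.4 and 13.3 CPM in Control samples, and 72.3% of its reads were intron reads (-0.15 ± 0.17 SE, edgeR adjusted p = 0.547). Of hoxc9a reads 44.4% were unique, and of hoxc3a reads 43.1%.

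The A clusters hold the duplicates hoxa13a and hoxa13b. On chromosome 19, hoxa13a, from 20156555 to 20158340, had 35.0, 35.5 and 20.6 CPM in 24h samples and 39.6 and 48.3 CPM in Control samples. It was lower without overlap but did not pass the test (-0.53 ± 0.24 SE, 95% interval -1.10 to 0.04, edgeR adjusted p = 0.156). Only 21.0% of its reads were unique, and on unique reads it passed (-0.64, edgeR adjusted p = 0.0377). The copy hoxa13b, on chromosome 16 from 21090085 to 21092017, with 70.7% unique reads, had 21.0, 24.7 and 18.9 CPM in 24h samples and 31.6 and 34.3 CPM in Control samples. Its call (-0.61 ± 0.15 SE, edgeR adjusted p = 0.0284) was lost without 24h replicate 1 (0.0569) or 3 (0.0504), without Control replicate 1 (0.117) or 2 (0.180), and in limma on log2(RPKM + 1) (0.0509). In the hoxaa cluster none of the 4 tested models passed in edgeR on total reads, and 29.1% of all genes had groups apart in the lower direction, as 3 of these 4 had. The gene hoxa11a had 0.147, 0.423 and 0.260 CPM in 24h samples and 1.00 and 0.857 CPM in Control samples (-1.70 ± 0.53 SE, edgeR adjusted p = 0.0534, or 0.0424 without 24h replicate 2). The model hoxa9a_1 had 1.04 to 3.64 CPM in 24h samples and 4.86 and 4.35 CPM in Control samples (-0.92 ± 0.45 SE), with 37.0% unique reads. The values of hoxa3a overlapped, at 2.53 to 5.62 CPM in 24h samples and 7.44 and 3.82 CPM in Control samples (-0.49 ± 0.40 SE), and 42.2% of its reads were unique. All hoxaa models lie within a long model of evx1 on the other strand.

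In the hoxab cluster 3 of 4 tested genes were called lower, each with values that did not overlap. Over all genes 14.8% were called lower and 29.1% had groups apart in that direction. All hoxab models lie within the model of tax1bp1b on the other strand, which had 411 ± 27.9 CPM (SD, n = 3) in 24h samples and 440 ± 50.2 CPM (SD, n = 2) in Control samples. The gene hoxa10b had 1.32, 1.52 and 1.88 CPM in 24h samples and 2.96 and 3.30 CPM in Control samples (-0.99 ± 0.29 SE, edgeR adjusted p = 0.0466). For hoxa9b the values were 1.17, 1.02 and 0.584 CPM in 24h samples and 1.90 and 3.16 CPM in Control samples (-1.42 ± 0.41 SE, edgeR adjusted p = 0.0429). Both calls lie near the threshold: that of hoxa10b was lost when either Control library or 24h replicate 1 or 2 was left out (edgeR adjusted p from 0.0914 to 0.226) and in DESeq2 (0.0633), and that of hoxa9b when any library was left out (edgeR adjusted p from 0.0568 to 0.283). The gene hoxa11b, whose paralogue number marks the middle limb segment in the mouse, had 0.974 to 1.57 CPM in 24h samples and 1.74 and 1.58 CPM in Control samples and did not pass (-0.40 ± 0.35 SE).

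The hoxba cluster, on chromosome 3 from 23523685 to 23640594, had all 4 of its tested genes called lower, beside 14.8% of all genes. Of these, hoxb7a and hoxb13a passed the filter only through the Control group, so their direction was fixed and the count is a description. The gene hoxb13a, whose mouse counterpart limits the growth of the tail, had 0.391, 0.423 and 0.584 CPM in 24h samples and 1.74 and 1.71 CPM in Control samples (-1.90 ± 0.38 SE, edgeR adjusted p = 0.0113). For hoxb10a the values were 1.66, 2.96 and 2.01 CPM in 24h samples and 5.44 and 6.86 CPM in Control samples (-1.46 ± 0.31 SE, edgeR adjusted p = 0.0141). In both genes every 24h library lay below both Control libraries, yet without Control replicate 1 or 2 the edgeR adjusted p was 0.101 and 0.0757 for hoxb13a and 0.0573 and 0.105 for hoxb10a. The gene hoxb9a had 1.76, 2.12 and 1.95 CPM in 24h samples and 3.91 and 4.09 CPM in Control samples (-1.04 ± 0.26 SE, edgeR adjusted p = 0.0258). Its call ended without 24h replicate 1 or 2 or either Control library (edgeR adjusted p from 0.0534 to 0.153). The trunk gene hoxb7a had 0, 1 and 0 reads in 24h samples and 17 and 16 in Control samples, so that it was 57.5 times lower in pooled, library-scaled reads (95% Clopper-Pearson interval 9.63 to 2340, counting error only; edgeR adjusted p = 0.00317).

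**Figure D3:**
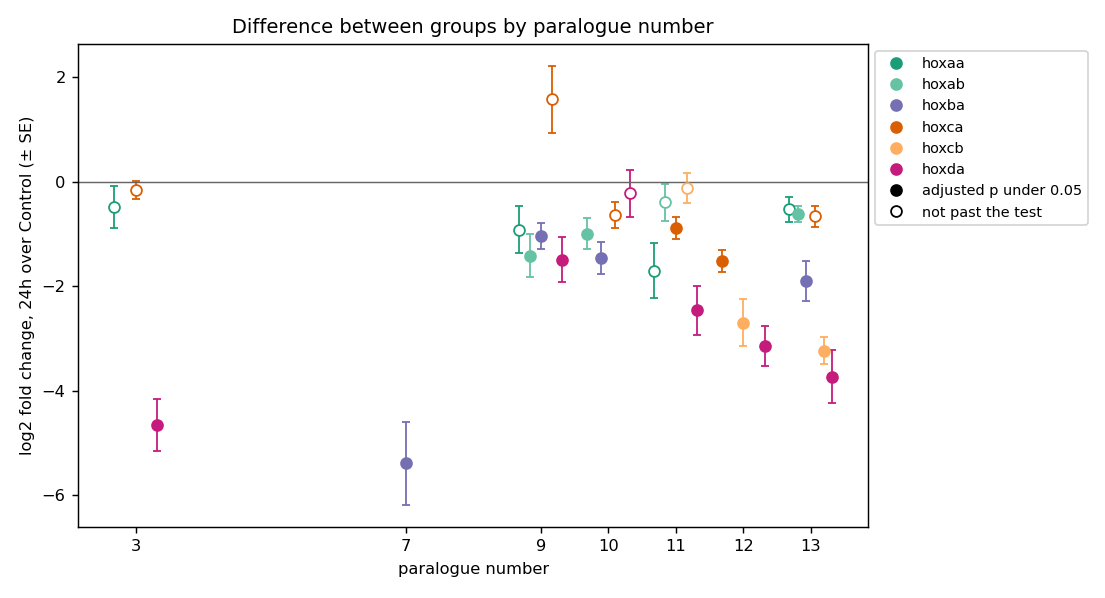
Log2 fold change, 24h over Control, with its SE against paralogue number for the 27 tested Hox models, coloured by cluster; filled points passed the test. The hoxda and hoxcb points of numbers 12 and 13 lie between -2.69 and -3.73, and the hoxaa, hoxab and hoxca points of number 13 lie between -0.53 and -0.66. Between these ranges lie hoxb13a at -1.90 and hoxc12a at -1.51. Of the lowest points of numbers 12 and 13, hoxd12a, hoxd13a and hoxc12b passed the filter only through the Control group and had to be lower. Only hoxc9a lies above 0.

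By paralogue number, all 3 genes of number 12 and 4 of the 6 of number 13 were called lower, with median log2 fold changes of -2.69 and -1.28. Among them hoxc12b, hoxd12a, hoxb13a and hoxd13a passed the filter only through the Control group, as did hoxd11a and hoxa11a of number 11, hoxb7a and hoxd3a, so these counts and medians are a description and set no order among the numbers. Of number 11, 2 of 5 were called (median -0.88), of number 10, 2 of 4 (-0.82), and of number 9, 3 of 5 (-1.04). Over all genes tested, 14.8% were called lower. Among the 25 models of numbers 1 to 8, 4 could be tested, and hoxb7a and hoxd3a were called. Within number 13, the log2 fold changes of hoxd13a, hoxc13b and hoxb13a were -3.73, -3.24 and -1.90, and those of hoxc13a, hoxa13b and hoxa13a lay between -0.53 and -0.66.

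Duplicated copies of the same gene can be set against each other within a library. The ratio of hoxc13a to hoxc13b RPKM, on the log2 scale, was 4.87, 4.08 and 4.09 in 24h samples and 1.65 and 1.76 in Control samples, so that the ratio was 6.23 times higher in 24h samples. For hoxc12a over hoxc12b it was 6.02, 5.35 and 4.74 in 24h samples and 4.19 and 4.18 in Control samples, and for hoxc11a over hoxc11b 1.05, 1.24 and 0.61 in 24h samples and 2.03 and 1.36 in Control samples. The groups did not overlap in these pairs, with the a copy gaining on the b copy for numbers 13 and 12 in 24h samples and losing for number 11. The ratio of hoxa11a to hoxa11b was -2.63, -0.75 and -1.12 in 24h samples and -0.09 and -0.10 in Control samples, and those of hoxa13a to hoxa13b and of hoxa9a to hoxa9b overlapped. Of hoxa13a reads 21.0% were unique and of hoxa9a_1 reads 37.0%, so the ratios that overlapped rest in part on reads that were not unique. This also holds for the hoxa11 and hoxc13 ratios, and unequally between the groups. Unique reads made up 82.4% of hoxa11a reads in 24h samples and 62.5% in Control samples, and 100% and 81.4% of hoxc13b reads. Of these copies hoxc12b and hoxa11a passed the filter only through the Control group, which partly fixed the direction of the hoxc12 and hoxa11 ratios. With 3 libraries against 2 an exact two-sided permutation test over libraries cannot give a p below 0.1. That value was reached by hoxc13 and hoxc11 (adjusted p = 0.3 over 6 pairs), and the other pairs had an exact p of 0.2 to 0.8, so no pair could pass.

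**Figure D4:**
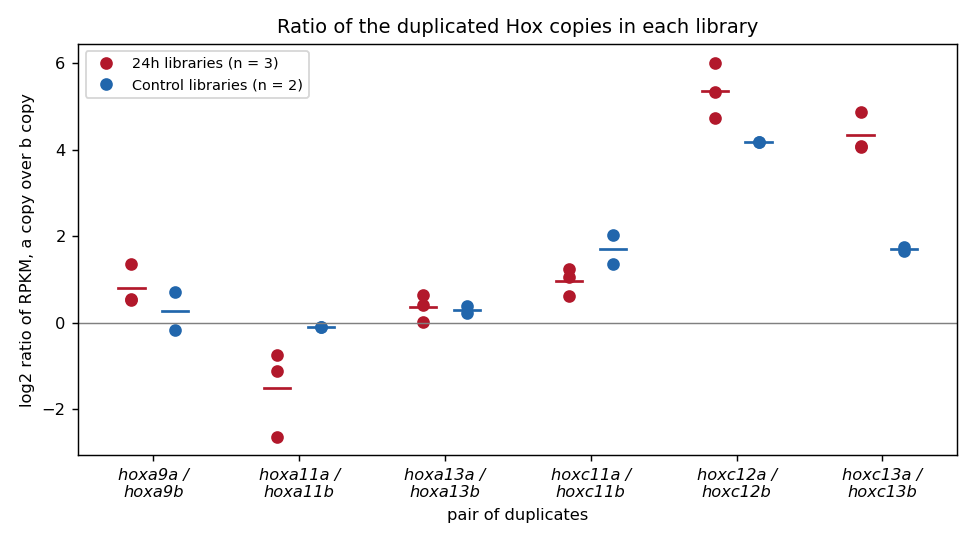
Log2 ratio of RPKM of the a copy over the b copy for 6 pairs of duplicated Hox genes in each library, 24h libraries left of Control libraries, with group means as lines. The hoxc13 ratio lies between 4.08 and 4.87 in 24h samples and between 1.65 and 1.76 in Control samples, while the hoxa13 ratios of the groups overlap.

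Intron reads, which come largely from unspliced RNA, allowed a test for 10 Hox models. Of these 3 were called lower, against 4.77% of the 13277 genes tested on intron reads, and 0 higher, against 2.16%. They were hoxc12a (-1.53, edgeR adjusted over those genes), hoxd12a (-4.95) and hoxd3a (-5.31), and the median of the 10 was -1.37 against 0.01 over all genes. With 1 intron read each in 24h samples, against 24 for hoxd12a and 31 for hoxd3a in Control samples, these genes could enter the intron test only through the Control group and had to be lower, so hoxc12a is the call that this does not fix. For hoxc12a the share of intron reads was 21.1% in 24h samples and 21.1% in Control samples, and exon reads gave -1.51. Intron reads of hoxc13a gave -1.004 and its exon reads -0.60, neither past the test. The models hoxd3a, hoxa9a_1, hoxa3a and hoxc3a overlap other models on their own strand. Reads counted in their introns can thus be exon reads of those models. On exon reads alone 16 of 27 models were lower and 0 higher, against 15.8% and 10.1% of all genes, and on unique reads 18 of 27 were lower and 0 higher, against 15.7% and 10.2%.

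Hox proteins bind DNA together with TALE homeodomain proteins of the Pbx, Meis and Pknox families. Of 11 such genes tested, pbx1a and meis1b were lower and meis2a was higher, and the median of the 11 was -0.05. Over all genes 14.8% were lower and 9.43% higher, and counts as small as these lie near those shares. The gene pbx1a had 2.35, 4.74 and 4.54 CPM in 24h samples and 14.0 and 15.3 CPM in Control samples (-1.92 ± 0.30 SE, edgeR adjusted p = 0.00407). The gene meis2a, which in vertebrate limbs marks the part near the body, had 8.31, 9.15 and 10.6 CPM in 24h samples and 2.80 and 2.97 CPM in Control samples (1.69 ± 0.22 SE, edgeR adjusted p = 0.00191). These cofactors thus differed in opposite directions, each without overlap. For meis1b (-0.87 ± 0.24 SE, edgeR adjusted p = 0.0389) the call was lost without 24h replicate 1 (0.106) or 2 (0.104) or Control replicate 1 (0.323). The most abundant members, pbx2 (0.09 ± 0.12 SE) and pbx4 (-0.05 ± 0.14 SE), did not pass.

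Retinoic acid sets Hox expression along the body axis, and 23 genes of its synthesis, breakdown and reception were tested, of which 5 were higher and 6 lower (median 0.05), beside 9.43% and 14.8% of all genes. Of the genes that supply it, aldh1a2 (2.65 ± 0.18 SE) and rdh10a (1.25 ± 0.21 SE) were higher and aldh1a3 did not pass (0.35 ± 0.15 SE), and rdh10a was not called without Control replicate 1 (edgeR adjusted p = 0.0644). The retinal reductase genes dhrs3a (-6.72) and dhrs3b (-1.78), which lower the supply, were lower. With 1, 2 and 1 reads in 24h samples and 116 and 143 in Control samples, dhrs3a passed the filter only through the Control group and had to be lower. The breakdown enzymes split, with cyp26a1 (1.23) and cyp26c1_2 (1.70) higher and cyp26b1 (-2.43) lower. In CPM, cyp26a1 had 194, 172 and 167 in 24h samples and 51.6 and 99.95 in Control samples, and it lost its call without 24h replicate 1 (edgeR adjusted p = 0.0619). The binding protein gene crabp1b (-1.59) and the receptor genes rarga (-0.51) and rxrbb (-0.62) were lower and rdh10b (0.78) was higher, each losing its call when Control replicate 1 was left out (edgeR adjusted p from 0.0757 to 0.247) and all but crabp1b also under other left-out libraries. The most abundant member, crabp2a, did not pass (0.11). Of the Cdx and Evx homeobox genes, relatives of the Hox genes, evx1_1 and evx1_2 could be tested, and evx1_2 was lower (-0.74 ± 0.13 SE, edgeR adjusted p = 0.00601, or 0.0631 without Control replicate 1).

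Of 13 fin outgrowth genes tested, 5 were lower and 3 higher (median -0.27), beside 14.8% and 9.43% of all genes. The lower ones were gli3 (-1.17), encoding a Hedgehog effector that sets digit number in the mouse, bmp4 (-1.64), and the actinodin genes and1 (-3.51), and2 (-5.31) and and3 (-4.94), whose proteins build the fibrils of the fin edge. With 3, 6 and 2 reads in 24h samples and 117 and 83 in Control samples, and3 passed the filter only through the Control group and had to be lower. The higher ones were the growth factor genes fgf10a (2.17) and fgf24 (1.04) and the zinc finger gene sall1a (0.74, edgeR adjusted p = 0.108 without Control replicate 1). Of the fin and limb bud genes hand2, tbx4 and tbx5a, none reached the filter, and each had at most 0.198 CPM in a library.

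Markers of several cell types moved with the groups, where 14.8% of all genes were lower and 9.43% higher. Of 16 fibroblast and fin mesenchyme markers tested, 11 were lower and 1 higher, and the summed level of that list was 4409 to 6115 CPM in 24h samples and 18002 and 19430 CPM in Control samples. Osteoblast markers were lower in 9 of 12, with 1903 to 2191 CPM in 24h samples and 16847 and 17105 CPM in Control samples. Endothelial markers were lower in 7 of 9 (29.9 to 32.1 CPM in 24h samples, 169 and 173 CPM in Control samples), melanophore markers in 8 of 8 (4.35 to 7.07 CPM in 24h samples, 204 and 224 CPM in Control samples), and nerve and glia markers in 3 of 5 (4.28 to 5.92 CPM in 24h samples, 21.1 and 19.98 CPM in Control samples). Epidermal markers, which fit the tissue label, were high in both groups, at 32829 to 43745.5 CPM in 24h samples and 36939 and 42880.5 CPM in Control samples, with 4 of 14 higher and 3 lower. Most of this sum was krt5, with 20346 to 33108 CPM over all libraries. The 3 lower ones were krtt1c19e (-7.35, with 0.325 to 1.03 CPM in 24h samples and 103 and 112 CPM in Control samples), cyt1 (-2.02) and agr1 (-0.71). The call of agr1 was lost without 24h replicate 2 (edgeR adjusted p = 0.115) and also without either Control library. The 4 higher ones, krt4, tp63, cdh1 and cldni, all lost their call without Control replicate 1 (edgeR adjusted p from 0.102 to 0.12). Skeletal muscle markers summed to 23.2 to 29.2 CPM in 24h samples and 13.4 and 17.7 CPM in Control samples, of which tnnt3b alone, which was higher, had 19.8 to 26.4 CPM in 24h samples and 9.76 and 12.7 CPM in Control samples. The muscle marker ckma was lower, at 0 to 0.127 CPM in 24h samples and 1.16 and 0.923 CPM in Control samples, both calls were lost without Control replicate 1 (edgeR adjusted p = 0.108 for tnnt3b and 0.0944 for ckma), and myog and pvalb2 were at 0. Among nerve and glia markers isl1 and nefma were at 0. Red blood cell markers were lower in 3 of 5 (14.1 to 33.2 CPM in 24h samples, 69.4 and 69.9 CPM in Control samples), and macrophage markers in 5 of 11, with 1 higher (1549 to 3237 CPM in 24h samples, 2927 and 2543 CPM in Control samples). The call of slc4a1a was lost without 24h replicate 1 or 2 (edgeR adjusted p = 0.069 and 0.0848) and that of c1qb without 24h replicate 2 (0.0612). That of the fibroblast marker prrx1a was lost without 24h replicate 2 or 3 (edgeR adjusted p = 0.083 and 0.0592). Those of hbaa1, csf1ra, marco, c1qa, lgmn, col5a1, col12a1a and etv2 were each lost when a Control library was left out. Among the markers called lower, fmodb, bglap, dct, oca2, slc45a2, sox10, foxd3 and ckma passed the filter only through the Control group. They had to be lower, so the counts that hold them are a description. The part of these cell types in the Hox differences was not tested.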

How the data were processed

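RNA was sequenced from 5 caudal fin samples. Per the labels' protocols, RNA was isolated with phenol and libraries came from a kit that selects mRNA and keeps strand. The genome build is GRCz10, per the submitters' processing notes. Not given in the sources used here are the aligner, the counting program and the strand setting. Each deposited table gives, per the file headers, whole-number counts per gene (total, unique, exonic, intronic and junction reads) and the authors' TPM and RPKM, written with decimal commas. The deposited RPKM imply division by 1.00 times the gene reads in 24h replicate 1 and 1.10 times in the other libraries, so they were not made alike. Exon and intron counts summed to the total count in every gene. Names and coordinates were read from the deposited tables, and 47 of the 50 Hox identifiers were found in a separate gene name table.

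Total gene reads of all 5 libraries were tested with edgeR 4.0.16 (R 4.3.3; quasi-likelihood F test, TMM, filterByExpr with a minimum count of 10, robust dispersion), adjusted over 19034 genes by Benjamini-Hochberg at 0.05. The SE is |log2 fold change| over the root of F, and 95% intervals use its t quantile. CPM and RPKM in the text were computed from the deposited counts. Every pair of libraries differed beyond sampling noise (lowest chi-square per degree of freedom 15.2). Without marked PCR copies, counting intervals cover counting error only. Alternatives were DESeq2 1.42.0, other scaling and filters, unique, exon and intron reads, limma 3.58.1 on log2 of the deposited TPM or RPKM plus a pseudocount of 1 or 0.1, and leaving out each library. The code was tested on simulated counts. The labels give no batch, and no covariate was used. By rule, values per library are given for Hox models past the test and for the 5 others of highest RPKM; those of hoxa11a and hoxd10a were added after their values were seen. From each gene list those past the test and the 2 of highest mean CPM are named, with neighbours of the clusters past the test. The Hox genes and all lists were chosen with earlier results of these data known.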

Additional observations from a re-analysis of the deposited data

How the results depend on the processing

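The count of 16 Hox models lower in the 24h libraries was 15 to 18 under other scaling, filters, unique or exon reads, DESeq2 and limma. It was 3 on intron reads, where 10 models could be tested, and 7 to 13 when a library was left out. The count of higher models, 0, was 1 in DESeq2 and 0 to 1 when a library was left out, each time hoxc9a. Over the 27 models and their alternatives, 355 of 415 values kept their direction and side of the threshold, 42 lost the call, 12 gained it and 6 changed sign, none of these called: hoxd10a was 0.0024 in limma on log2(RPKM + 1), 0.0089 on log2(RPKM + 0.1) and -0.60 to 0.26 when a library was left out, hoxc11b -0.29 to 0.076 and hoxa3a -0.87 to 0.077. The positive values came without Control replicate 2 for hoxd10a, without 24h replicate 2 (0.0068) and Control replicate 2 for hoxc11b, and without Control replicate 1 for hoxa3a. The cause was not tested. Where Control keeps 1 library, that library is assumed to vary like the 24h libraries. Genes of the other lists also lost calls when a library was left out, and the share of all genes called in those fits is not given here. No paired analysis was possible because no replicate number in the labels ties a 24h sample to a Control sample. Depth limits the low members: without the low-count filter hoxb8a, with 1 read in 24h samples and 19 reads in Control samples, was called lower.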

Other observations

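The 15 Hox models with too few reads to test held 61 reads in 24h samples and 85 in Control samples together, with 1 to 41 reads a model. Among them hoxb8a, next to hoxb7a in the hoxba cluster, had 0, 0 and 1 reads in 24h samples and 8 and 11 in Control samples, and hoxb6a had 0 in each 24h library and 1 and 7 in Control samples. The paralogous hoxb8b had no read in 24h samples and 1 in each Control library. Not all of the untested models went this way. The one with the most reads, hoxa9a_2, had a mean of 0.411 CPM in 24h samples and 0.416 CPM in Control samples. For hoxa1a the reads were 5 in 24h samples and 5 in Control samples, for hoxc8a 5 and 3, and for hoxc10a_2 8 and 4. The 8 models without reads were hoxb1a, hoxb4a, hoxb5a, hoxb6b, hoxc1a, hoxc4a, hoxc6a and hoxc6b, for which 3 reads in all libraries together correspond to 0.0321 CPM.

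Of the genes that are inside or overlap a Hox cluster or are the 3 nearest on each side, 34 could be tested. Of these, 1 was lower and 3 were higher, beside 14.8% and 9.43% of all genes, and their median log2 fold change was -0.22. Whether this share differs from that of the Hox genes was not tested. The lower one, evx1_2, is a long model that spans the hoxaa cluster on the other strand (55.8 ± 4.79 CPM, SD, n = 3, in 24h samples and 93.1 ± 5.45 CPM, SD, n = 2, in Control samples, -0.74), and it was not called without Control replicate 1 (edgeR adjusted p = 0.0631). The shorter model evx1_1 did not pass (0.18), and evx2, beside hoxd13a, had 1 read in 24h samples. The higher ones were lima1a (1.29) near hoxca, and psme3 (0.70) and atp5g1 (0.62), each losing its call when either Control library was left out (edgeR adjusted p from 0.0605 to 0.202), and atp5g1 also without 24h replicate 1 (0.0634) or 2 (0.0855). Precursors of mir-10 and mir-196 inside the clusters were listed at 0 in every library, in libraries made from mRNA.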
